A study of Homo sapiens with 52 samples.

Results

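MDA-MB-231 cells that carried the hairpin shNRP1#3 against NRP1 were compared with MDA-MB-231 cells that carried a non-targeting hairpin, shNT. The samples were chosen by their labels, and the 3 shNRP1#3 and 3 shNT samples are 6 of the 52 bulk RNA sequencing samples of a study that lowered NRP1 with 2 siRNAs and 2 hairpins in 3 cell lines. MDA-MB-231, SUM159PT and HS578T are established human lines of the claudin-low type of breast cancer, which has low levels of cell-cell adhesion genes and a mesenchymal expression pattern. Both groups were transduced with a pLKO.1 lentivirus, selected with 1 µg/mL puromycin for 3 days and harvested 48 hr after seeding, so the control cells carry a vector and a hairpin too. By the study's methods the replicates were consecutive passages of the transduced cells. Variation between separate transductions is therefore not measured. The p-values for genes between these groups rest on a spread pooled over all MDA-MB-231 groups, siRNA samples included, not on these passages alone. The methods describe shNRP1#3 as directed at the transmembrane transcripts of NRP1, leaving its soluble transcripts without a site.

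Neuropilin-1, the product of NRP1, is a cell surface co-receptor without kinase activity of its own. It binds class 3 semaphorins together with plexins, and VEGF family ligands together with VEGF receptors, and shorter transcripts that lack the membrane anchor encode secreted forms that also bind ligand. A short hairpin RNA is cut by Dicer into a duplex, one strand of which is loaded into an Argonaute protein, where bases near its 5′ end, the seed, contribute most to target recognition.

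The 21 bases of the hairpin target lie on the minus strand at chr10:33185659-33185679 of GRCh38, in exon 15 of the most abundant transmembrane transcript, within its coding sequence at transcript positions 2665 to 2685. NRP1 itself spans chr10:33177492-33336262. The sequence is shown because the changes described further on are set against stretches of it. The target stands in capitals within its flanks, followed by the antisense strand of the hairpin with its bases 2 to 8, the usual seed position, in capitals. The site is in 4 of 14 annotated NRP1 transcripts, all of them transmembrane.
NRP1 target: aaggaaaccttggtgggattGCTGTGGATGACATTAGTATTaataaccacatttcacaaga
antisense strand: aAUACUAAugucauccacagc

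The 6 samples held 25851515 to 63173667 expected counts per sample, and the lowest total was that of shNRP1#3 replicate 1. Within each group, log2 CPM (counts scaled to the size of each library) of pairs of replicates had Pearson correlations of 0.985 to 0.994 across 13942 genes, which share each sample's depth. Claudin-low features were present: VIM, the mesenchymal intermediate filament, stood at 2670 to 3930 CPM and CDH1, the epithelial cadherin, at 0.470 to 1.24 CPM. CLDN4, a claudin, was not low, at 127 to 187 CPM. None of the 4 adhesion genes and none of the 4 mesenchymal genes of the claudin-low lists passed the test between the groups.

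Libraries of shNRP1#3 replicates 2 and 3 stood apart in genes that MDA-MB-231 does not normally express. Across 11 genes expressed in HS578T and in neither other line, such as PRAME and MEDAG, the median level in shNRP1#3 replicate 3 was 2.39% of the level in HS578T, against 0 to 0.0312% in shNRP1#3 replicates 1 and 2 and the 3 shNT samples. Across 7 genes of SUM159PT, such as PCSK6 and IRX2, the median was 1.39% of the SUM159PT level in shNRP1#3 replicate 3 and 0.520% in replicate 2, against 0 to 0.0766% in replicate 1 and shNT. The summed level of the HS578T genes was 11.2 CPM in shNRP1#3 replicate 3 and 0.0375 to 0.232 CPM in the other 5 samples. For the SUM159PT genes it was 15.6 CPM in replicate 3, 4.78 CPM in replicate 2 and 0.332 to 0.580 CPM in the other 4 samples. None of the 18 genes was at 0 in replicate 3. Results are therefore also given with the estimated reads of the other lines subtracted and with shNRP1#3 replicate 1 alone in its group, alternatives chosen after the data had been seen.

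**Figure D1:**
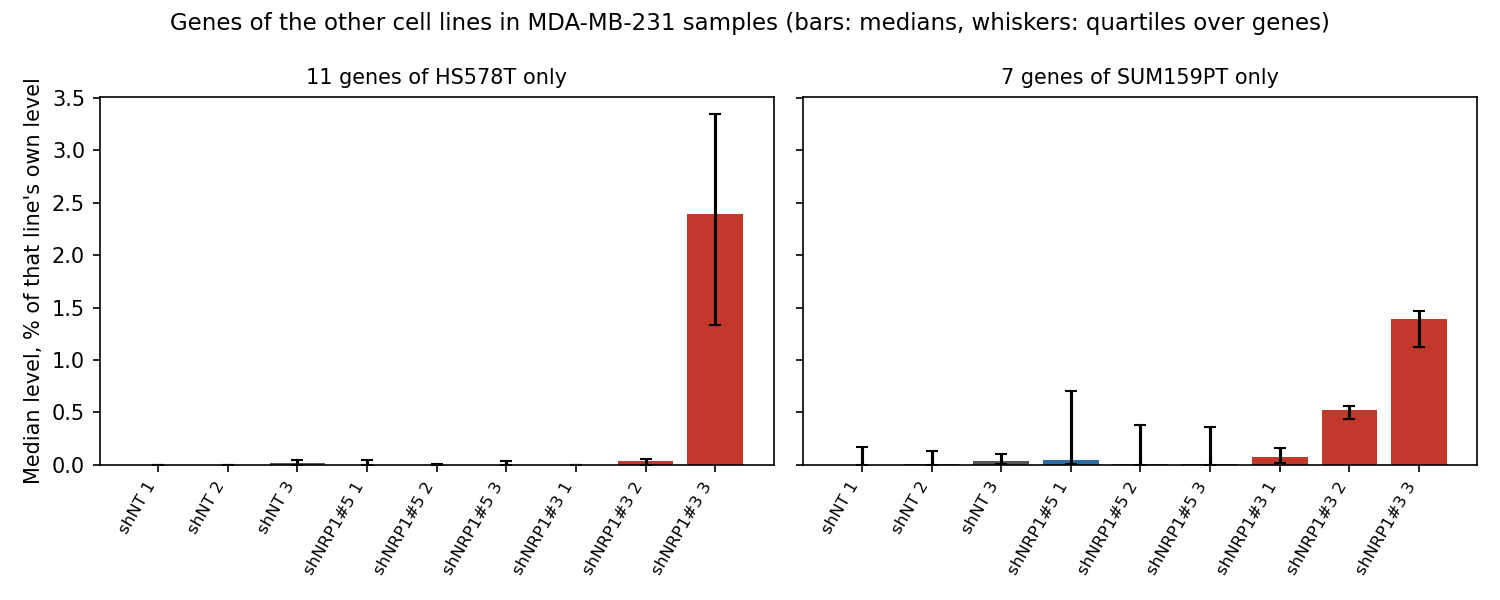
Median level of genes expressed only in HS578T (left, 11 genes) or only in SUM159PT (right, 7 genes) in the 9 MDA-MB-231 hairpin samples, as a percentage of the level in that line, with quartiles over the genes as whiskers. shNRP1#3 replicate 3 stands at 2.39% and 1.39%, and replicate 2 at 0.520% for SUM159PT, while replicate 1 and the shNT samples are at 0.0766% or less.

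NRP1 was lower in every shNRP1#3 sample. It stood at 67.9, 68.6 and 75.7 CPM in shNRP1#3 replicates 1 to 3 and at 209, 193 and 188 CPM in shNT, so the groups did not overlap. The level was 36.0% of that in shNT, a log2 fold change of -1.48 (SE 0.15, edgeR quasi-likelihood test, adjusted p = 1.83e-05), and -1.50 with the other-line reads subtracted. The transmembrane transcripts together fell from 42.7 ± 2.73 TPM (an abundance scaled to transcript length and to the total; SD, n = 3) in shNT to 13.0 ± 1.24 in shNRP1#3, or 30.5% of the control. The soluble transcripts, which lack the target site, stood at 13.9 ± 0.902 TPM against 21.5 ± 2.74, or 64.7%. The groups did not overlap in either class, and each difference had p = 0.1 in the exact two-sided permutation test, the smallest value that 3 against 3 samples allow. NRP1-204, the most abundant soluble transcript, made up 34.97% ± 5.03 of NRP1 in shNRP1#3 and 22.3% ± 3.83 in shNT (SD, n = 3). NRP1-204 has 29 bases that the transmembrane transcripts lack, so its share rests largely on the authors' statistical assignment of shared reads.

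**Figure D2:**
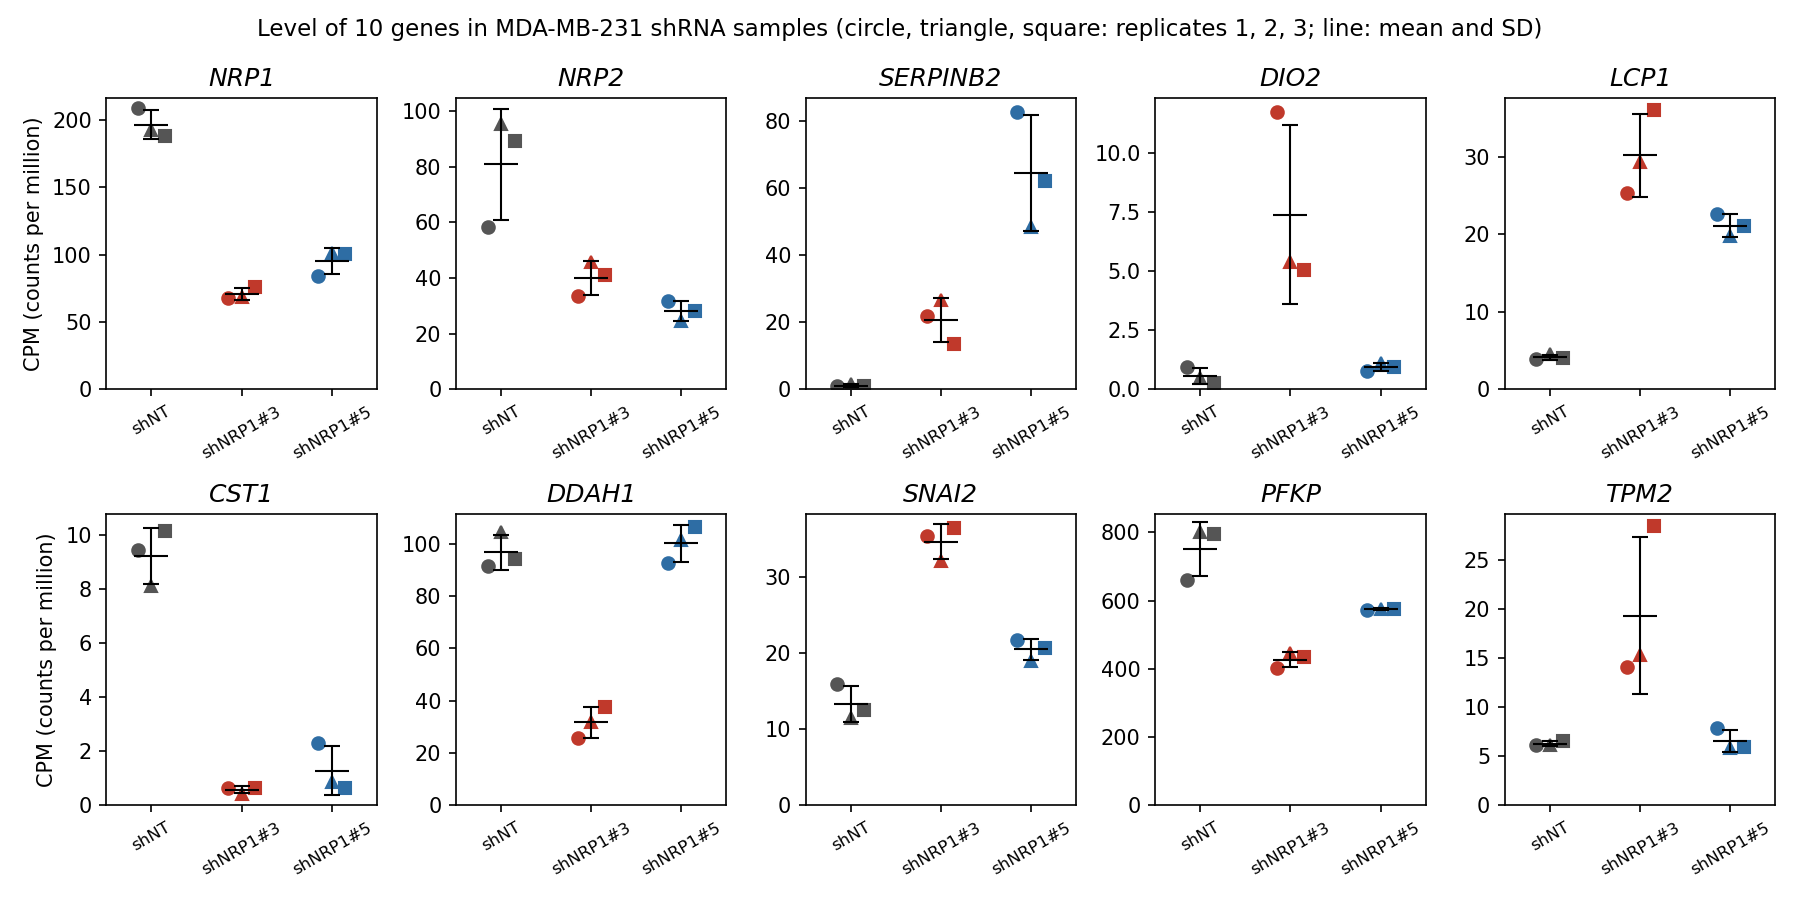
Level in CPM of 10 genes in each MDA-MB-231 sample with shNT, shNRP1#3 or shNRP1#5, with mean and SD as lines. NRP1, NRP2, CST1, DDAH1 and PFKP are lower in the 3 shNRP1#3 samples than in the 3 shNT samples, SERPINB2, DIO2, LCP1 and SNAI2 are higher, and TPM2 is highest in shNRP1#3 replicate 3.

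Of 18800 genes tested, 686 (3.65%) passed an adjusted p of 0.05 in edgeR, 275 that rose (1.46%) and 411 that fell (2.19%). A change of 2-fold or more was reached by 149 of those that rose and 154 of those that fell, and 3147 genes had an unadjusted p under 0.05. The median log2 fold change over all genes tested was 0.02. Of the 686, 606 were protein coding, and 673 had groups that did not overlap, against 31.5% of all genes tested. The count of calls depended on the fit, from 99 with replicate 1 alone in its group to 2360 when the siRNA samples were left out of the model, and fell to 425, 429 and 376 without shNRP1#3 replicate 1, 2 or 3 and 480, 303 and 315 without shNT replicate 1, 2 or 3. After subtraction of other-line reads, 655 genes passed, 228 of the 275 and 397 of the 411 among them. Of the 69 genes that passed among the named ones, 36 also passed in each of the 6 fits that left out 1 sample.

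The largest rise among the genes named by size was that of SERPINB2 (chr18:63871692-63903888), an inhibitor of plasminogen activators. It stood at 21.9, 26.5 and 13.6 CPM in shNRP1#3 and at 0.987, 1.50 and 0.834 CPM in shNT. That is an 18.7-fold difference between the means, a log2 fold change of 4.23 (SE 0.33, edgeR adjusted p = 1.73e-06). DIO2, the deiodinase that activates thyroid hormone, reached 11.7, 5.38 and 5.02 CPM against 0.932, 0.464 and 0.273 CPM (log2 fold change 3.73, adjusted p = 3.34e-05). In both genes the 3 shNRP1#3 samples lay above the 3 shNT samples, as the rule for genes named by size required. LCP1, the actin-bundling protein L-plastin, rose by 2.87 on the log2 scale (25.4, 29.3 and 36.0 against 3.93, 4.51 and 4.0035 CPM, edgeR adjusted p = 3.74e-07), and by 2.71 after subtraction. IL24, a cytokine of the interleukin-10 family, stood at 9.13, 15.6 and 5.35 CPM against 1.32, 3.80 and 1.17 CPM (log2 fold change 2.27, edgeR adjusted p = 0.00916). FLG, which encodes the epidermal protein filaggrin, TOX, an HMG-box nuclear factor, and SHOC1, known from meiosis, also rose, by 2.44, 1.74 and 2.12 on the log2 scale. THBS1-IT1, a transcript within an intron of THBS1, rose by 2.33, and THBS1 itself, the matrix glycoprotein thrombospondin-1, by 0.70 (2533, 2093 and 2271 against 1542, 1555 and 1148 CPM, edgeR adjusted p = 0.0229). Reads of the 2 overlapping genes may not be fully separable. CCDC190 and CPED1 rose by 1.75 and 1.59. Of these genes, IL24 did not pass without shNT replicate 3, THBS1 without shNRP1#3 replicate 1 or 3 or shNT replicate 2 or 3, and CCDC190 without shNT replicate 2 or 3.

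AKR1C1 and TPM2 were also among the 12 largest rises, and both had high estimates of other-line reads in shNRP1#3 replicate 3. AKR1C1, an aldo-keto reductase, stood at 1.80, 3.15 and 12.8 CPM in shNRP1#3 replicates 1 to 3, and 15.5 CPM was the level estimated from other lines in replicate 3. The estimate exceeded the measured level, so the subtraction, which cannot go negative, left no AKR1C1 reads in that sample. The log2 fold change of AKR1C1, 2.38 (edgeR adjusted p = 0.0401), turned to -1.77 (adjusted p = 0.406) after this subtraction. AKR1C1 did not pass with the replicate block either (edgeR adjusted p = 0.0743). TPM2, a tropomyosin, stood at 14.1, 15.4 and 28.6 CPM against 6.14, 6.14 and 6.63 CPM in shNT, with an other-line estimate of 27.0 CPM in replicate 3. Its log2 fold change was 1.62 (edgeR adjusted p = 0.00741), and 0.69 (adjusted p = 0.364) after subtraction. TPM2 passed with any 1 sample left out, and without shNRP1#3 replicate 3 its log2 fold change was 1.22 (edgeR adjusted p = 0.0473). In replicate 1, where the other-line estimate was 0.355 CPM, it lay above the 3 shNT samples, as the naming rule required of each replicate. For 32 of the 275 genes that rose, among them ABCC2, TP63, CXCL12, CDH2 and MMP2, the estimate reached 50% or more of the rise. It exceeded the whole rise for some, such as CXCL12 (150%) and AKR1C1 (137%), so values after subtraction are approximate.

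Among the genes named by size, falls were led by CST1 (chr20:23747562-23751268), which encodes the secreted protease inhibitor cystatin SN. It stood at 0.650, 0.441 and 0.657 CPM in shNRP1#3 and 9.45, 8.12 and 10.2 CPM in shNT, a log2 fold change of -4.02 (SE 0.47, edgeR adjusted p = 1.75e-04). PALM, the membrane-associated protein paralemmin, fell by 2.66 on the log2 scale, from 22.2 ± 3.56 to 3.48 ± 0.656 CPM (SD, n = 3). DDAH1, which breaks down asymmetric dimethylarginine, an inhibitor of nitric oxide synthesis, was the most abundant of the 12 largest falls, at 25.7, 32.0 and 37.6 CPM against 91.4, 104 and 94.2 CPM (log2 fold change -1.60, edgeR adjusted p = 5.11e-05). NEDD9, a scaffold protein of focal adhesions, stood at 3.93, 3.95 and 3.73 CPM against 13.0, 12.8 and 11.4 CPM (log2 fold change -1.68). HHIP, an antagonist of hedgehog ligands, fell by 1.65, the matrix proteoglycan FMOD by 1.77 and the scavenger receptor COLEC12 by 1.79. SUSD3, PCDH1, LGALS12 and NDRG4 also fell, with log2 fold changes of -1.74 to -1.56. The rule required that the groups did not overlap in these 12 genes, and the subtraction of other-line reads left each past the threshold. COLEC12 did not pass without shNRP1#3 replicate 1 or 2 or shNT replicate 2, and LGALS12 without shNRP1#3 replicate 2 or 3 or shNT replicate 2.

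Among the neuropilins, semaphorins and plexins, 4 of 25 genes tested fell, NRP1 itself included, and 1 rose, with a median log2 fold change of -0.21. Over all genes tested, 2.19% fell and 1.46% rose. NRP2, the second neuropilin, stood at 33.4, 45.7 and 41.1 CPM against 58.2, 95.3 and 89.4 CPM in shNT, 49.6% of the control (log2 fold change -1.01, SE 0.22, edgeR adjusted p = 0.0115). SEMA3E, a semaphorin that signals through PLXND1, rose by 1.42 (7.36, 5.64 and 5.99 against 2.12, 2.43 and 2.52 CPM, edgeR adjusted p = 6.99e-04). SEMA3G and PLXNA4 fell by 0.90 and 0.88, both at under 5 CPM. SEMA3C and SEMA7A had log2 fold changes of 0.67 and 0.74 with adjusted p of 0.0682 and 0.057, and passed with the replicate block (adjusted p = 0.0323 and 0.0112). PLXNA1, a plexin that pairs with neuropilins, stood at 187 ± 9.49 against 272 ± 23.0 CPM (SD, n = 3; edgeR adjusted p = 0.313). NRP1 and SEMA3E passed with any 1 sample left out, NRP2 did not pass without shNRP1#3 replicate 1 or shNT replicate 2 or 3, and SEMA3G and PLXNA4 passed in 1 of the 6 fits, that without shNT replicate 1.

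Of 6 VEGF ligands and receptors tested, 2 fell and none rose, while 2.19% of all genes tested fell and 1.46% rose. FLT1, VEGF receptor 1, was expressed at a low level and stood at 0.144, 0.392 and 0.232 CPM against 0.932, 0.890 and 0.880 CPM (log2 fold change -1.72, edgeR adjusted p = 0.00452). PGF, placental growth factor, a ligand of that receptor and of neuropilin-1, stood at 14.1, 15.8 and 22.3 CPM against 37.0, 36.6 and 43.1 CPM (log2 fold change -1.16, adjusted p = 0.0198). VEGFA, at 100.4 ± 1.72 against 112 ± 19.4 CPM (SD, n = 3), overlapped between the groups. Of 13 receptor tyrosine kinases, FGFR4 fell (log2 fold change -0.86, edgeR adjusted p = 0.0136) and none rose, counts near those shares. PDGFRB, at 5.02, 5.42 and 13.8 CPM against 11.2, 17.5 and 17.3 CPM, had an adjusted p of 0.125, which was 0.0465 with the replicate block and 0.0242 after subtraction of other-line reads. PDGFRA, at 6.38 CPM in shNRP1#3 replicate 3 and at most 0.327 CPM in the other 5 samples, passed with the replicate block (adjusted p = 0.0357) and without it had adjusted p = 0.0608. Its other-line share was not tested beyond the subtraction, which gave adjusted p = 0.159. EGFR, MET and AXL did not pass. FLT1 passed with any 1 sample left out, while PGF did not without shNRP1#3 replicate 1 or 2 or shNT replicate 2 or 3, and FGFR4 did not without shNRP1#3 replicate 1 or 3 or shNT replicate 3.

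Of 20 feedback and target genes of the MAPK pathway, 5 fell (2.19% of all genes tested fell), none rose (1.46% of all), and the median log2 fold change was -0.32, against 0.02 over all genes. SPRY1, an inhibitor of receptor signalling, stood at 6.28, 9.52 and 7.86 CPM against 18.3, 18.6 and 20.4 CPM (log2 fold change -1.27, edgeR adjusted p = 0.00925). DUSP6, the phosphatase of ERK, and the transcription factors ETV4 and ETV5 fell by 0.76, 0.74 and 0.82. HMGA1, a chromatin protein, fell by 0.76 (690, 956 and 946 against 1313, 1570 and 1522 CPM). None of 15 AP-1 and immediate early genes passed. Of 32 genes of glycolysis and the hypoxia response, 3 fell, none rose, and the median was -0.29, to be read against the same shares. These were EGLN3, an oxygen-dependent prolyl hydroxylase (-1.27), and the glycolytic enzymes PFKP (-0.82) and ENO1 (-0.61). Of 7 IGF binding proteins tested, IGFBP4 fell from 1653, 1874 and 2133 to 690, 889 and 1139 CPM, and IGFBP2 also fell. In the synthesis of cholesterol and fatty acids, ELOVL6 and ACLY fell, 2 of 29 genes tested. HMGA1, EGLN3, PFKP and IGFBP4 passed with any 1 sample left out. SPRY1 was lost without shNRP1#3 replicate 1, and DUSP6, ETV5 and IGFBP2 without that sample or shNT replicate 2 or 3. ENO1 and ELOVL6 were lost in the same 3 fits and without shNRP1#3 replicate 3, and ACLY in all but the fit without shNT replicate 1.

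Of 29 collagens and matrix genes, 4 rose and none fell, against 1.46% and 2.19% of all genes tested. The median log2 fold change was 0.42, or 0.41 after subtraction of other-line reads, and 0.22 without shNRP1#3 replicate 3, when 2 of the 29 rose. COL7A1, the anchoring fibril collagen, stood at 149, 115 and 122 CPM against 74.5, 34.6 and 61.2 CPM (log2 fold change 1.18, edgeR adjusted p = 0.0198). LUM rose by 1.76, and COL5A2 by 3.02, at 0.758, 1.41 and 6.90 CPM in the 3 replicates, a rise that was 2.14 after subtraction. Among proteases and the plasminogen system, 4 of 22 rose and 1, the inhibitor TIMP1, fell. MMP2, which had the largest fitted change of the list (4.90, edgeR adjusted p = 0.0243), stood at 0.253, 9.36 and 17.4 CPM, so that replicate 1 lay within the shNT range of 0.128 to 0.427 CPM, and it did not pass after subtraction (adjusted p = 0.131). LUM passed with any 1 sample left out. COL7A1 was lost without shNRP1#3 replicate 1 and COL5A2 without shNRP1#3 replicate 3, and both without shNT replicate 2 or 3.

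SNAI2, the transcription factor Slug of the epithelial-mesenchymal transition, stood at 35.3, 32.0 and 36.4 CPM against 15.9, 11.4 and 12.6 CPM (log2 fold change 1.38, edgeR adjusted p = 0.00584), and the groups did not overlap. In its list of 12 tested genes, CDH2, N-cadherin, also passed (0.361, 0.882 and 3.61 CPM against 0.219 to 0.364 CPM, adjusted p = 0.0217, and 0.0717 after subtraction), while CDH11 fell by 1.34. KRT19 and JUP were the 2 of 19 epithelial genes that fell. CDKN1A, the cyclin-dependent kinase inhibitor p21, stood at 68.4, 91.8 and 80.2 CPM against 145, 133 and 140 CPM (log2 fold change -0.80, edgeR adjusted p = 0.00634). None of 25 genes of mitosis passed, of 30 replication genes GINS3 alone rose, and of 27 interferon-stimulated genes BST2 and USP18 fell and none rose. With 1.46% of all genes tested rising and 2.19% falling, counts of 0 or 1 in lists of 25 to 30 genes are near the background. The 2 that fell of 27 and of 19 genes, and the 2 that rose of 12, are above those shares. No list was tested as a set. CCL2, a chemokine that attracts monocytes, fell by 2.05, CCN2, a target of YAP, by 0.93, and the receptor TGFBR1 by 0.85. Most members of their lists had positive log2 fold changes. These were 14 of 22 cytokines and chemokines (median 0.76), 11 of 17 YAP targets (0.08) and 13 of 20 TGF-beta genes (0.19). Over all genes tested, 9853 of 18800 were positive, with a median of 0.02. Whether the lists differ from that share was not tested. AMOTL1 fell with adjusted p = 0.0494, which was 0.0567 with the replicate block, and it passed in none of the 6 fits that left out 1 sample. TRAF1, HMOX1, KLF4, ADAM12 and CCND2 rose, the last at 1.00 to 1.19 CPM against 0.128 to 0.148 CPM. None of 26 genes of the unfolded protein response, none of 16 of antigen presentation and none of 13 of the RNA interference machinery passed. Of the genes in this paragraph, SNAI2, CDKN1A, USP18, CCL2, TGFBR1, TRAF1 and CCND2 passed with any 1 sample left out. CCN2 was lost without shNT replicate 2, HMOX1 without shNRP1#3 replicate 2 or shNT replicate 1, and KLF4, KRT19, JUP, CDH2, CDH11, BST2, GINS3 and ADAM12 in 3 to 5 of the 6 fits.

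**Figure D3:**
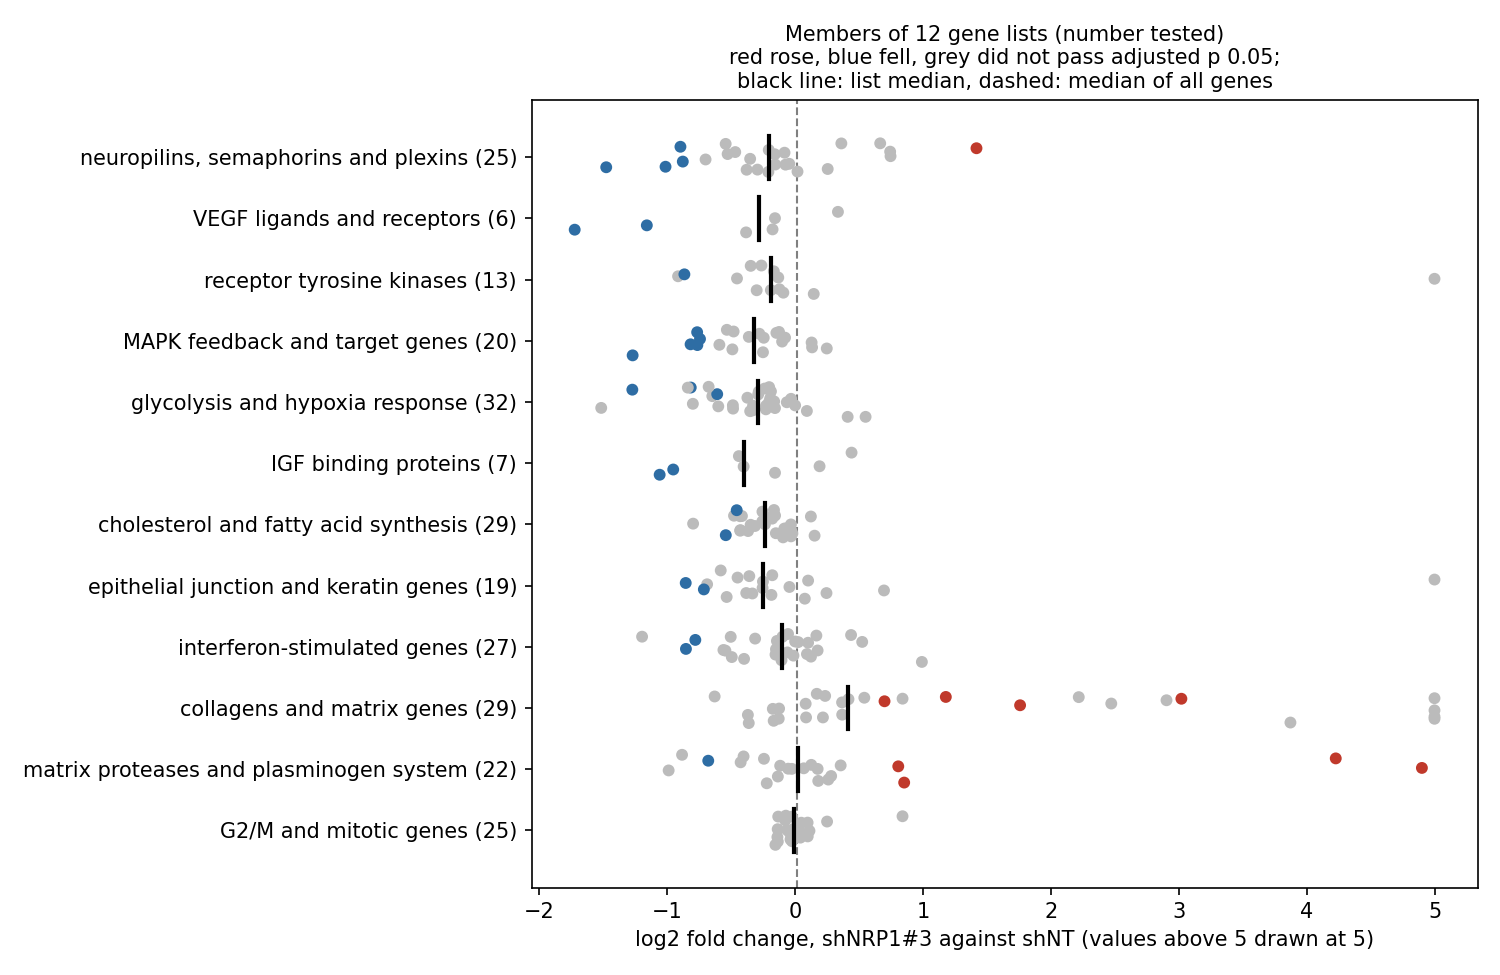
Log2 fold change of shNRP1#3 against shNT for each tested member of 12 gene lists, with the list median as a black bar and the median of all genes as a dashed line. The MAPK feedback list (median -0.32) and the glycolysis and hypoxia list (-0.29) have no red, risen member, while the collagen and matrix list (0.42) has no blue, fallen member. Values above 5 are drawn at 5.

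The second hairpin, shNRP1#5, has its site in transmembrane and soluble transcripts, and its NRP1 level of 83.8, 101 and 100.4 CPM was 0.43 on the log2 scale above that of shNRP1#3, a direct difference that did not pass (edgeR adjusted p = 0.0565). Tested directly, 2670 genes (14.2%) differed between the hairpins, 8.24% of those tested being higher and 5.96% lower with shNRP1#3. Of the 275 genes that rose with shNRP1#3, 85 were higher with shNRP1#3 than with shNRP1#5, 10 were lower and 180 did not pass. Of the 411 that fell, 141 were lower with shNRP1#3, 21 were higher and 249 did not pass. Both sets were chosen on the same shNRP1#3 samples that enter the direct contrast, which favours these directions. DDAH1 was 1.65 lower on the log2 scale with shNRP1#3 (SE 0.18, edgeR adjusted p = 1.7e-05), having stood at 92.5, 101 and 106 CPM with shNRP1#5. DIO2 was 2.96 higher and SHOC1 3.36 higher with shNRP1#3. SERPINB2 was 1.64 lower with shNRP1#3, since it reached 82.8, 48.4 and 62.1 CPM with shNRP1#5, and LGALS12, at 0.064 to 0.165 CPM with shNRP1#5, was 4.18 higher. For LCP1, NRP2 and SEMA3E the direct difference did not pass (adjusted p = 0.0744, 0.124 and 0.241). The 2 hairpins share their shNT samples, so changes against shNT are not independent. Against shNT, 20.7% of genes passed with shNRP1#5 (8.79% rose, 11.9% fell).

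The same hairpin was measured in SUM159PT (3 shNRP1#3 and 3 shNT samples) and HS578T (2 and 3), each with its own shNT. In SUM159PT, 281 of 20067 genes passed (1.40%), 68 that rose (0.339%) and 213 that fell (1.06%). In HS578T 7 of 19661 passed (0.0356%), 1 that rose (0.00509%) and 6 that fell (0.0305%). Of the MDA-MB-231 genes that fell, 370 were tested in SUM159PT and 82 fell there too, 22.2% of the one list and 38.5% of the other, and 1 rose. Their median log2 fold change in SUM159PT was -0.84, with 326 of 370 negative, against 47.2% of all genes tested in SUM159PT. In HS578T their median was -0.60, with 335 of 388 negative, against 49.5% of all genes tested there. The genes that rose had a median of 0.46 in SUM159PT, with 198 of 247 positive against 52.6% of all genes, and 0.34 in HS578T, with 183 of 251 positive against 50.2%. Of the 247, 7 also rose in SUM159PT, namely HSD17B10, NRCAM, DUSP16, DYNLRB1, EVI5L, CHSY3 and FBXW10B, and 1 fell. HSD17B10, a mitochondrial dehydrogenase that is also a subunit of RNase P, stood at 132, 136 and 141 CPM against 58.1, 57.6 and 55.5 CPM in MDA-MB-231 (log2 fold change 1.25), and its log2 fold change was 1.16 in SUM159PT (edgeR adjusted p = 0.00793) and 0.91 in HS578T (adjusted p = 0.402).

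In a model of all 52 samples, the change in MDA-MB-231 differed from the mean change of SUM159PT and HS578T for 165 of 23416 genes (0.705%; 0.653% higher and 0.0512% lower in MDA-MB-231), and for 38 without shNRP1#3 replicate 3. Of the 275 genes that rose, 34 were higher by this test, and of the 411 that fell, 3 were lower. Both sets were chosen on the same MDA-MB-231 samples that enter this test. NRP1 had a difference of -0.04 between the lines (edgeR adjusted p = 1.0), and its own log2 fold change was -1.31 in SUM159PT (adjusted p = 0.0342) and -1.59 in HS578T (adjusted p = 0.069). The genes that passed as lower in all 3 lines were 5: PFKP, KIAA1191, DPF2, SNAPIN and TPRG1L. PFKP, the platelet-type phosphofructokinase, stood at 402, 446 and 434 CPM against 660, 799 and 796 CPM in MDA-MB-231, and its log2 fold change was -0.82 there, -2.43 in SUM159PT and -2.16 in HS578T. SNAPIN, a protein of vesicle docking, stood at 16.8, 21.7 and 20.7 CPM against 40.2, 45.6 and 43.7 CPM (log2 fold change -1.13, and -1.94 and -1.99 in the other lines). DPF2, a subunit of the BAF chromatin remodeller, stood at 37.2, 41.6 and 43.8 CPM against 73.0, 71.3 and 72.4 CPM. TPRG1L and KIAA1191 fell by 1.37 and 1.19 on the log2 scale in MDA-MB-231. With shNRP1#5 in MDA-MB-231, mean levels were 41.7 CPM for SNAPIN, 85.5 for DPF2, 33.2 for TPRG1L, 213 for KIAA1191 and 575 for PFKP. Against its shNT mean of 295 CPM, KIAA1191 fell with shNRP1#5 too (log2 fold change -0.47, edgeR adjusted p = 0.0137). PFKP had a log2 fold change of -0.39 with shNRP1#5 and did not pass (edgeR adjusted p = 0.0945). In the list of genes shared with SUM159PT, PYURF and PIGY carry the same values and are read from one locus. POM121 and POM121C are near-identical copies at separate positions. Reads of the members of each pair may not be separable, so they may not count as separate results.

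Matches to the hairpin in the 3′ UTRs of the changed genes were counted on the transcript strand, in the most abundant annotated transcript of each gene, for 398 of the genes that fell, 199 of those that rose and 13643 of those tested. For bases 2 to 8 of the antisense strand, the position set in the design, the matching motif TTAGTAT was present in 10.8% of the genes that fell, 9.55% of those that rose and 9.26% of those tested. All 30 windows of 7 bases, 15 on each strand, were then searched with the calls already known, and the window with the largest ratio between genes that fell and genes tested is described here; no test was made. It comprised bases 6 to 12 of the antisense strand, in capitals in the line below, and its match, GACATTA, was in 28.6% of the genes that fell, 5.03% of those that rose (10 of 199) and 7.07% of those tested (964 of 13643), a ratio of 4.05. The ratio was 0.916 to 2.15 in the other 29 windows, several of which overlap this one. No mature human miRNA of 2370 in RefSeq has this window, or bases 2 to 8, as its own bases 2 to 8.
antisense strand, bases 6 to 12: aauacUAAUGUCauccacagc

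Of the 81 genes with a 3′ UTR that fell in SUM159PT too, 48 (59.3%) held GACATTA. These 81 genes, and the 5 described next, are part of the 398 on which the window was picked. Their matches are therefore not independent of that choice. The 5 genes that fell in all 3 lines each held 1 match in the transcript considered, and in each of these the base after the match was A. An A after the match was present in 76 of the 398 genes that fell (19.1%) and in 398 of the 13643 tested (2.92%). The matches are shown in capitals within their 23-base surroundings, at chr10:3136665-3136687 (PFKP, plus strand), chr5:176346503-176346525 (KIAA1191, minus), chr11:65352802-65352824 (DPF2, plus), chr1:153661394-153661416 (SNAPIN, plus) and chr1:3630053-3630075 (TPRG1L, plus), all on GRCh38. DDAH1, which fell with shNRP1#3 and not with shNRP1#5, held a match at chr1:85319011-85319033 on the minus strand.
PFKP: gtattattGACATTAatacctaa
KIAA1191: ggtaaatgGACATTAaacttttt
DPF2: gtggcactGACATTAagtagtgg
SNAPIN: gaccttcaGACATTAaaaaggga
TPRG1L: ttcataaaGACATTAagaagtgg
DDAH1: tgctttttGACATTAaaagacag

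Genes with a match have longer 3′ UTRs, with a median of 2868.5 bases against 795 bases in genes without one, and longer UTRs hold more matches of any motif. Among UTRs of up to 473 bases, 8 of 53 genes with a match fell (15.1%) against 76 of 4498 without (1.69%). Among those of over 1535 bases, 78 of 726 (10.7%) fell against 106 of 3818 (2.78%). These shares, and the MDA-MB-231 medians that follow, come from the same values on which the window was picked. Over the 964 genes with a match the median log2 fold change was -0.13, and over the 12679 without it was -0.01. The medians were -0.14 and -0.02 in SUM159PT and -0.06 and 0.01 in HS578T. With shNRP1#5, whose sequence is different, the medians were -0.02 and -0.02, and 6.16% of the genes that fell held a match. With the siRNA siNRP1#3, whose 19-base sequence is also different, the medians were -0.17 and -0.04, and 9.46% of the genes that fell held one. Of the MDA-MB-231 genes that fell and held a match, 107 of the 110 measured in SUM159PT were negative there, with a median of -1.11. Among those without a match it was 213 of 253, with a median of -0.68. Matches are a description of sequence, and whether the hairpin bound any of these transcripts was not tested. Of the 24 genes named by size, HHIP and DDAH1 held a match, and THBS1-IT1 was not searched. Among fallen genes named from the lists, EGLN3, PFKP, CCN2, TGFBR1, USP18 and ELOVL6 held a match, and the others held none. PLXNA1, MET and AXL, which did not pass, also held a match.

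**Figure D4:**
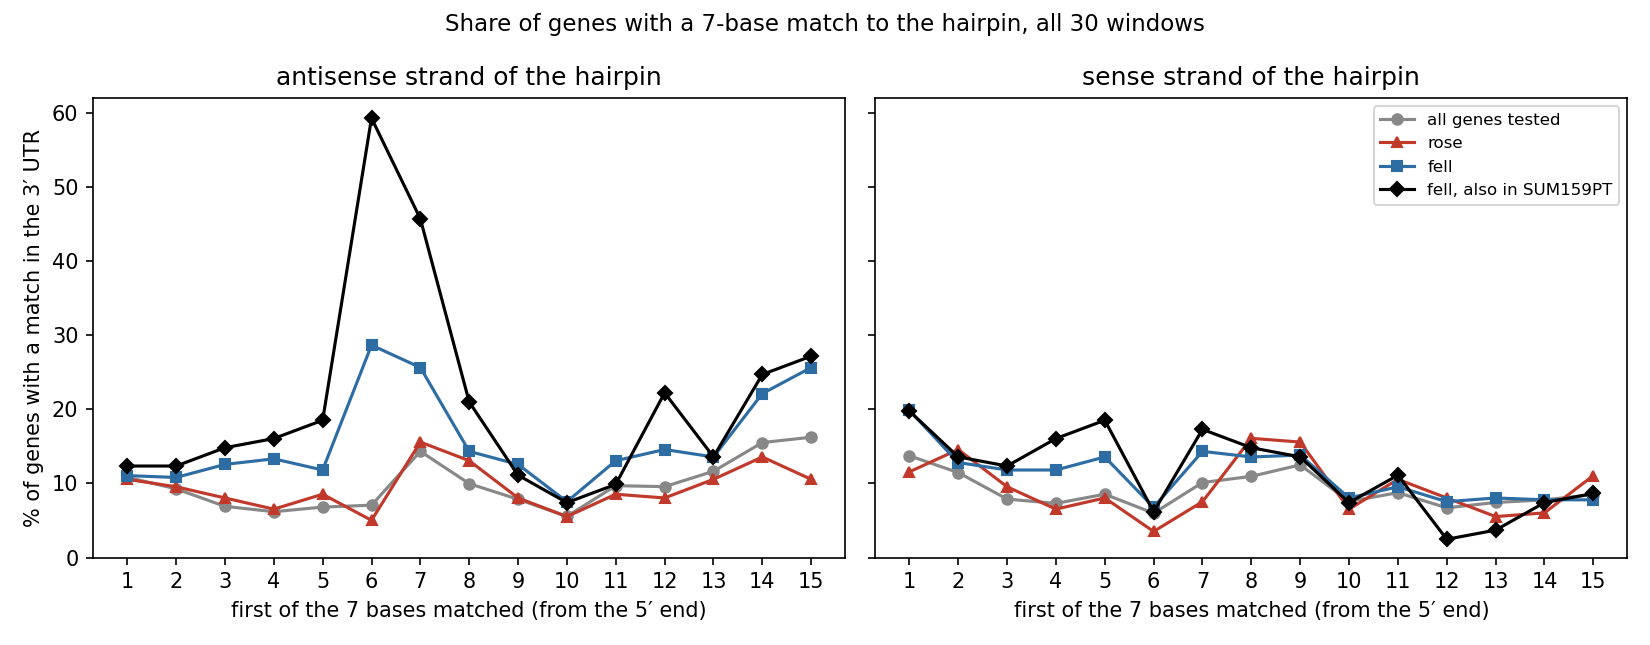
Share of genes with a match in the 3′ UTR to each window of 7 bases of the antisense (left) and sense (right) strand of the hairpin, by the first base of the window, for genes tested, risen, fallen, and fallen in SUM159PT as well. The antisense window that starts at base 6 is in 28.6% of the genes that fell and 59.3% of those that fell in SUM159PT too, against 7.07% of those tested. That window was picked on the genes that fell, which include those that fell in SUM159PT too.

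**Figure D5:**
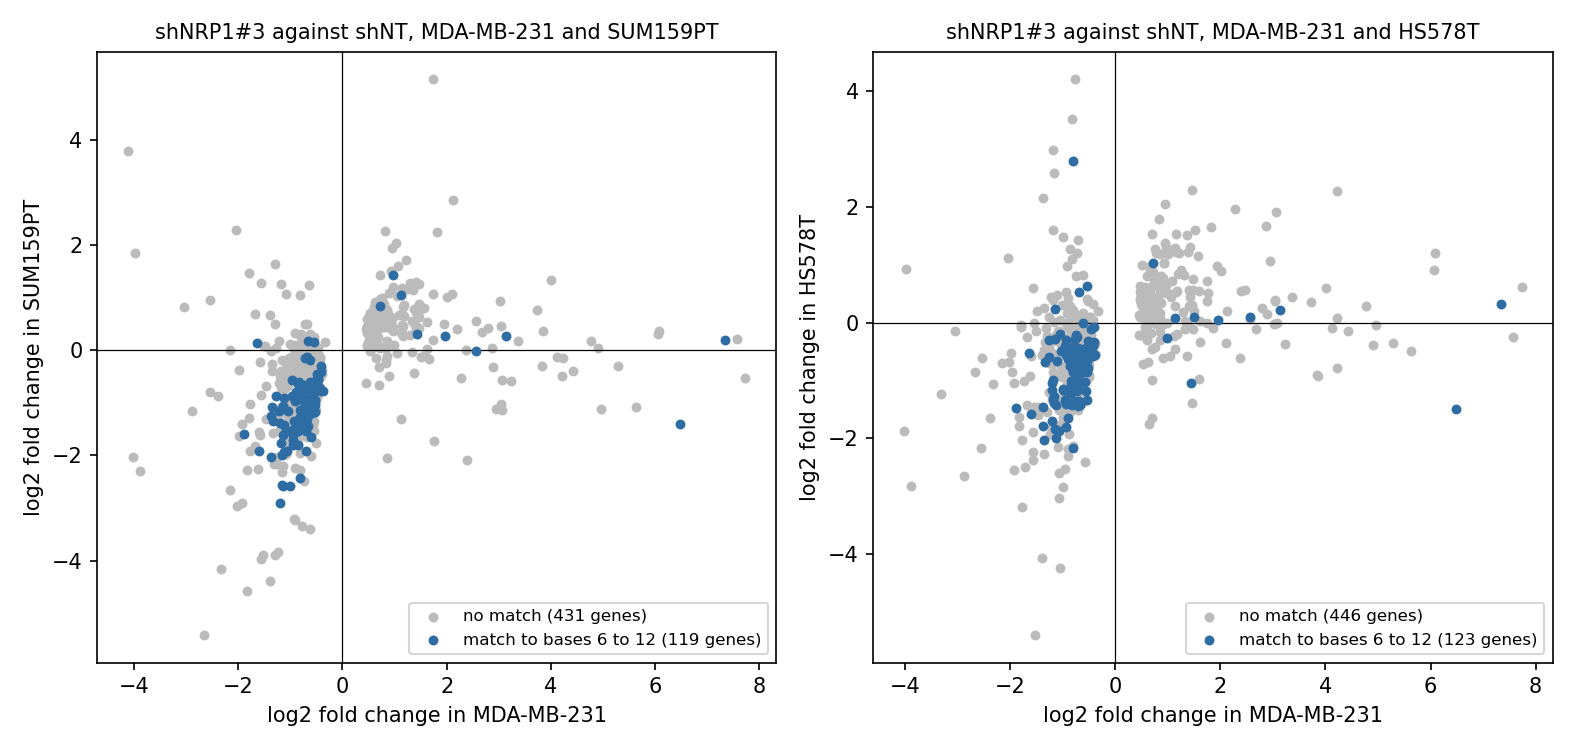
Log2 fold change of shNRP1#3 against shNT in MDA-MB-231 (horizontal) against that in SUM159PT or HS578T (vertical) for genes that passed in MDA-MB-231 and have an annotated 3′ UTR. Blue points hold a match to bases 6 to 12 of the antisense strand; of the fallen ones, 107 of 110 lie below 0 in SUM159PT and 109 of 113 in HS578T.

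The siRNA siNRP1#3, which by the methods targets transmembrane transcripts at a nearby site, was compared with its own siNT samples 72 hr after transfection. NRP1 fell by 0.70 on the log2 scale there (SE 0.15, edgeR adjusted p = 0.00173). In all, 4823 of 18800 genes passed (25.7%), 2143 that rose (11.4%) and 2680 that fell (14.3%). One of its siNT samples, replicate 3, held the HS578T genes at a median of 0.502% of the HS578T level. Of the 275 genes that rose with shNRP1#3, 45 rose and 45 fell with the siRNA. Of the 411 that fell, 116 fell (28.2%) and 61 rose. LCP1 rose with both (3.52 with the siRNA, SE 0.21), SERPINB2 rose with both (1.09, adjusted p = 0.0213), and NRP2 fell with both (-1.66). CST1 rose by 1.16 with the siRNA, FLG fell by 3.03 and SHOC1 fell by 1.37, each opposite to the hairpin. Reagent, delivery and time differ between the 2 experiments, and their parts cannot be told apart.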

How the data were processed

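Bulk RNA of 52 cell line samples was sequenced by the authors. Per the labels' processing notes they used FastQC 0.11.9, Trim Galore 0.6.5, STAR 2.7.2b and RSEM 1.3.3 on GRCh38. The deposited values are RSEM expected counts per gene and per transcript, TPM (estimated by the authors per transcript) and isoform percent (share of a gene's transcripts, deposited per transcript). Expected counts were rounded, filtered with filterByExpr and TMM normalised. Contrasts were tested with the quasi-likelihood test of edgeR 4.0.16 in R 4.3.3, in a model of the 6 group means of the 18 MDA-MB-231 samples, with Benjamini-Hochberg adjustment over 18800 genes and a threshold of 0.05. CPM values use the TMM library sizes. Transcript sums were compared as log2(TPM + 0.1) by exact permutation.

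Members and gene lists were chosen with earlier results of these data known. Genes named by size were the 12 largest rises and 12 largest falls past the threshold, with groups not overlapping, a mean of at least 5 CPM in the higher group and a gene symbol. Up to 4 passing members per list and the members of the NRP1 partner lists were also named. ABCC2, TP63, CXCL12, TIMP1, ETV4, the genes shared between lines and those described for their match to the hairpin were picked after their values were seen.

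Genes of other lines had at least 20 CPM in that line's controls and at most 0.5 CPM in MDA-MB-231 siNT samples. The estimated share was subtracted in an alternative, in which counts could not turn negative. Other alternatives were DESeq2 1.42.0, RLE factors, no count filter, fewer samples, a replicate block and leaving out each sample. Deviations of samples with the same replicate number correlated at 0.248, 0.332 and 0.204 between the groups. Other pairs correlated at -0.279 to -0.0359. The replicate numbers come from the labels, and the methods do not tie them to a day shared by groups. The main fit and the permutation test did not pair samples by number. The replicate block did, with 806 calls against 686 in the main fit. Sequences and positions are from GENCODE 44 on GRCh38, the authors' build but an earlier annotation release than theirs. It matched 18045 of the 18800 genes. The fits were tested on simulated data. Some genes that met the naming rule are not reported here.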

Additional observations from a re-analysis of the deposited data

Results flagged for a closer look

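For TPM2, the log2 fold change with shNRP1#3 in MDA-MB-231 exceeded the mean of those in SUM159PT and HS578T by 1.589 (edgeR adjusted p = 0.0226). TPM2 stood at 14.1, 15.4 and 28.6 CPM in the 3 shNRP1#3 samples, and its level estimated from other lines was 27.0 CPM in replicate 3. Without that sample the difference was 1.18 (edgeR adjusted p = 0.512).

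For NEDD9, the log2 fold change in MDA-MB-231 differed from that mean by -1.907 (edgeR adjusted p = 0.00646), and without shNRP1#3 replicate 3 by -1.89 (adjusted p = 0.0586). It was -1.68 in MDA-MB-231, 0.69 in SUM159PT and -0.25 in HS578T, and neither of the latter passed (edgeR adjusted p = 0.492 and 0.89).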

How the results depend on the processing

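The 686 calls became 1125 with DESeq2 (439 rose, 686 fell), 1538 without the count filter (687 and 851), 2044 with only the 6 samples (814 and 1230), 2360 with only the 9 hairpin samples (1001 and 1359) and 99 with shNRP1#3 replicate 1 alone in its group (35 and 64). Leaving out 1 sample at a time gave 303 to 480 calls, 106 to 231 that rose and 193 to 312 that fell; fewer samples entered those fits. The 50 members of gene lists that passed became 85 with DESeq2, 135 without the filter, 119 with the 6 samples, 117 with the 9 and 11 with replicate 1 alone (24 to 49 with 1 sample left out). Of NRP1 and the other 113 named genes, 69 passed, 20 with replicate 1 alone and 41 to 64 with 1 sample left out. The 2670 genes that differed between hairpins became 5741 with the 9 hairpin samples and 1394 to 1654 without 1 shNRP1#3 sample. The 165 genes that differed between lines became 38 without shNRP1#3 replicate 3. The hairpin match was in 10.8% of fallen genes for bases 2 to 8 and 28.6% for bases 6 to 12, a window picked after the calls were known. AKR1C1 reversed to -1.774 after subtraction of other-line reads and MMP2 to -0.2579 (log2) with replicate 1 alone. For AKR1C1 the subtraction left no reads in shNRP1#3 replicate 3, where the estimate exceeded the measured level. NRP1 kept its direction and call in the 14 alternatives, at -1.54 to -1.43. The replicate block gave 806 calls and, apart from AKR1C1, AMOTL1, SEMA3C, SEMA7A, PDGFRA and PDGFRB, changed no call of a named gene. In the transcript sums, leaving out 1 sample or changing pseudocount or unit kept the direction. Depth was lowest in shNRP1#3 replicate 1, and differences at under 1 CPM rest on few reads.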
